A study of Mus musculus with 19 samples.

Results

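A set of 10 collecting duct and water transport genes were followed through fasting in mouse kidney: the water channel genes Aqp1, Aqp2, Aqp3, Aqp4 and Aqp6, the vasopressin receptor gene Avpr2, the urea transporter gene Slc14a2, and Scnn1a, Scnn1b and Scnn1g, which encode the subunits of the epithelial sodium channel (ENaC). Every probe set that the array annotation assigned to a single gene of this list was taken, which gave 18 probe sets of 10 genes among 45141 probe sets and 17097 genes. The genes were chosen by name, with earlier results of these data known. Kidney RNA came from 19 male mice that underwent no ischemia, with 1 array per mouse and both kidneys represented in each sample. The young-lean groups, 5 mice fed ad libitum and 4 fasted, were of the C57BL/6J strain, weighed 22 to 25 g and were aged 10 to 14 weeks. The aged-overweight mice, labelled F1-FVB/C57BL6-hybrid, were 73 weeks old with an average weight of 47 g, and 5 were fed ad libitum and 5 fasted. Fasting lasted 3 days, and water was freely available to every group. Age, strain and body weight therefore differ together between the young and the aged mice and cannot be told apart.

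Principal cells of the collecting duct set how much water and sodium leave the body. Vasopressin binds its receptor Avpr2 on the blood side of these cells and raises cyclic AMP, which drives aquaporin-2 (Aqp2) into the luminal membrane and also its gene's transcription, and water then leaves the cell through aquaporin-3 and aquaporin-4. In the inner medulla vasopressin also opens urea transporters made from Slc14a2, while aldosterone acts on ENaC. Aquaporin-1 serves the proximal tubule and the thin descending limb, and aquaporin-6 sits in vesicles of acid-secreting intercalated cells.

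Promoter sequences are shown for Avpr2, Aqp2 and Aqp6, because these 3 genes were differentially regulated in young mice, the first 2 downwards and Aqp6 upwards. Each covers 250 bases before and 50 bases after a gene start in RefSeq, build GRCm38.p6, and all 3 lie on the plus strand. The Avpr2 window is chrX:73891852-73892151, the Aqp2 window is chr15:99578806-99579105 and the Aqp6 window is chr15:99600950-99601249. Capitals mark matches, on either strand, to 5 sets of letters: TGACGTCA (the cAMP response element), its shorter core TGACG and the steroid receptor site AGAACA, as well as AGATAA (a site of GATA factors) and TGTTTAC (a forkhead factor site).
Avpr2: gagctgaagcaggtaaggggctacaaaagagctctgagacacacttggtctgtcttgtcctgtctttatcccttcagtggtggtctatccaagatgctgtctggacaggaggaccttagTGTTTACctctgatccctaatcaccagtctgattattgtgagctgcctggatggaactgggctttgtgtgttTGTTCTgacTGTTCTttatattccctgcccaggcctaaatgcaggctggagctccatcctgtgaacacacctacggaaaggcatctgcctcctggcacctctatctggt
Aqp2: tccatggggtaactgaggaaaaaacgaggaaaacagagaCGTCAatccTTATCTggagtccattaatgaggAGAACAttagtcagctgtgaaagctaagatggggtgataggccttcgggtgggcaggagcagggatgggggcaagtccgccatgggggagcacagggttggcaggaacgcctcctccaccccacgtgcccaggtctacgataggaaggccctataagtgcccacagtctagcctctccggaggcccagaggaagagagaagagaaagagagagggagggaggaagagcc
Aqp6: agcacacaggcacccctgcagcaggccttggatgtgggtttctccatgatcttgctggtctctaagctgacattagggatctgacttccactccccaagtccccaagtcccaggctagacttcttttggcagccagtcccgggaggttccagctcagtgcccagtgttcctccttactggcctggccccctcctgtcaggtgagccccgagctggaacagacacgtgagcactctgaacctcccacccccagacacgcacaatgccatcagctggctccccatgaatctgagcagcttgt
The Aqp2 window held the core TGACG and AGATAA on the minus strand and AGAACA on the plus strand. The Avpr2 window held TGTTTAC on the plus strand and AGAACA at 2 places on the minus strand, and the Aqp6 window held none of the 5. Among 27025 promoters of the same length, 21.02% held TGACG, 19.02% AGAACA, 11.41% AGATAA, 3.55% TGTTTAC and 1.88% the full TGACGTCA, which contains the core. Such matches describe letters and not bound sites. Aqp2 and Aqp6 are close neighbours on chromosome 15, with Aqp5 the only protein-coding gene between them in that build. RefSeq promoters matched 7 of the 10 genes, and none is shown for Aqp4, Slc14a2 and Scnn1a.

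Levels are log2 values as the authors normalized them. The words rose and fell are used where limma gave an adjusted p no larger than 0.05, the Benjamini-Hochberg adjustment covering all 45141 probe sets, and a change of at least 1.5-fold is counted beside it. Array medians lay between 4.15 and 4.21 in young and between 3.44 and 3.49 in aged mice, so levels are compared within an age only. Arrays of a group correlated at 0.988 to 0.997 across probe sets. As a check of the tissue label, the median level of the proximal tubule list was between 10.57 and 11.31 on every array and that of the principal cell list between 7.37 and 8.28, both above the array medians, while that of skeletal muscle was between 2.97 and 3.30, below them. Levels of different probe sets give no order of transcript amounts. The median level of the liver list was also above the array medians, from 4.86 to 10.09. The liver transcript albumin stood at 12.58 in aged fasted mouse 33 against 5.41 to 7.33 in the other 4 aged fasted mice, and no more than 8.86 in aged fed mice. In young mice it was highest at 9.94 in fasted mouse 339, with 7.61 to 8.81 in the other 3 fasted mice and 6.72 to 9.50 in the fed mice. The median level of the brown adipocyte list reached 7.33 in young fasted mice and did not exceed 4.28 in young ad libitum fed mice. The number of mice limits the precision, and p values measure only the spread between these mice.

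In aged kidneys fasting raised 4 of the 18 probe sets, those of Aqp1, Aqp6 (with 2 probe sets) and Scnn1a, and lowered none. Across all probe sets 3.16% rose and 3.32% fell. The 2 probe sets of Aqp6 also passed 1.5-fold, as did 1.01% of all probe sets upwards. At p under 0.05 without adjustment 7 of the 18 passed. No share over all probe sets was computed at this unadjusted limit, here or below, so such counts cannot be set against a background. The median difference over the 18 was 0.06, against 3e-04 over all probe sets. In young kidneys 1 probe set of Aqp6 rose and those of Avpr2 and Aqp2 fell, against 10.1% of all probe sets that rose and 9.54% that fell. Of these Avpr2 alone passed 1.5-fold, and 2.68% of all probe sets did so downwards. At p under 0.05 without adjustment 6 passed, and the median difference over the 18 was 0.04, against 0.0033 over all probe sets. The share of members that rose was thus above the background in aged kidneys, where the 4 probe sets belong to 3 genes, and the shares were close to it in young kidneys. Because the genes were chosen with earlier results of these data known, the aged share is a description and no test. The aged count was also 2 in an ordinary test without moderation and 1 to 4 leaving out a mouse.

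**Figure D1:**
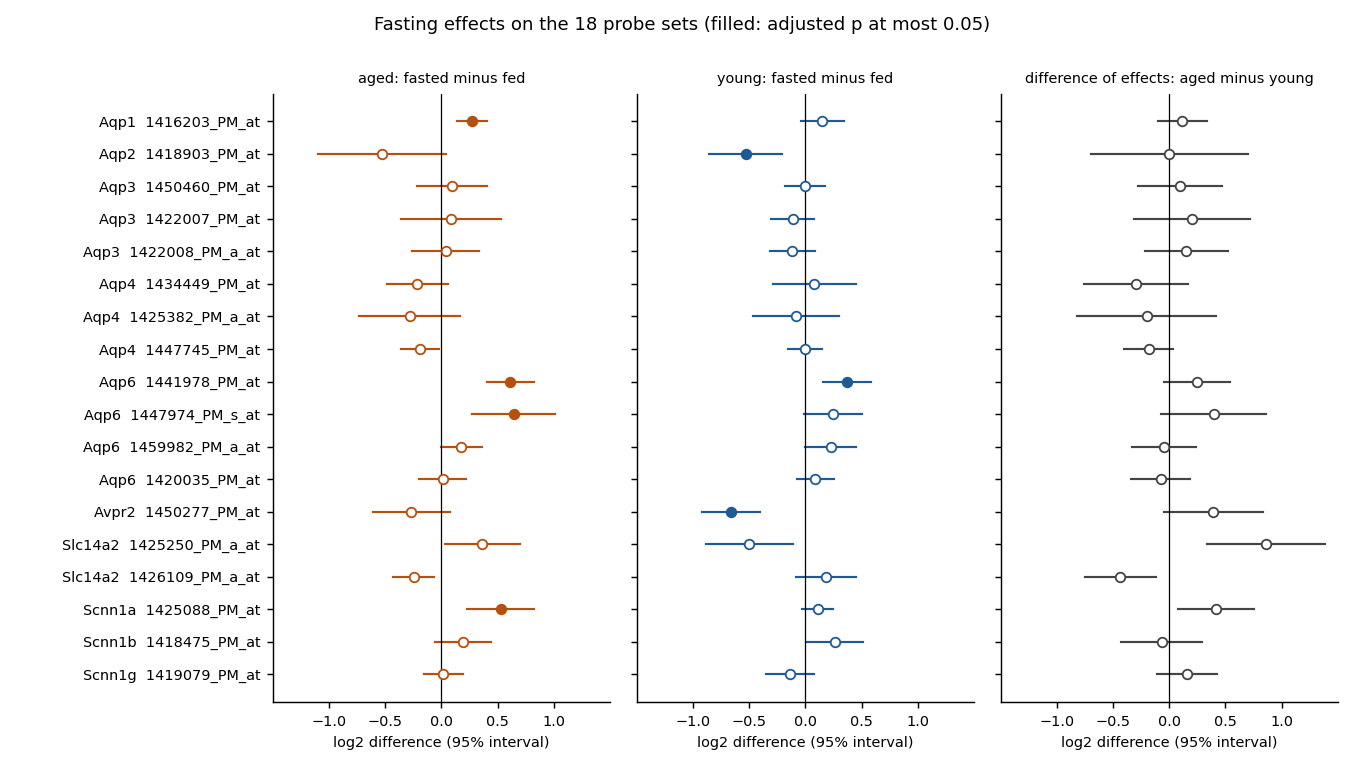
Log2 difference between fasted and ad libitum fed mice for each of the 18 probe sets, in aged mice (left), in young mice (middle) and as the aged minus the young effect (right). Points are estimates, lines 95% intervals, and filled points passed an adjusted p of 0.05: 4 in aged mice, 3 in young mice and 0 for the difference.

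The vasopressin receptor gene Avpr2 fell in young fasted mice. Its log2 level was 6.81, 6.83, 6.89, 6.90 and 6.93 in the 5 young ad libitum fed mice. It was 5.80, 6.17, 6.39 and 6.50 in the 4 young fasted mice. Every fasted mouse was below every fed mouse, and the fed mice were tightly grouped while the fasted mice were spread. The log2 difference was -0.66 ± 0.12 (SE), a fall to 0.632 of the fed level, with an adjusted p of 0.00217. In aged mice Avpr2 was at 6.10, 6.13, 6.16, 6.31 and 6.49 with ad libitum feeding. It was at 5.33, 5.91, 6.18, 6.22 and 6.22 after fasting. The aged groups overlapped, since 3 fasted mice lay within the fed range and mice 39 and 33 below it. The aged difference of -0.27 ± 0.16 (SE) did not pass (adjusted p = 0.41), and without mouse 39 it was -0.11.

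Aqp2, which encodes the water channel that vasopressin moves to the luminal membrane, also fell in young fasted mice. Its level was 7.04, 7.04, 7.31, 7.46 and 7.55 with ad libitum feeding. It was 6.36, 6.72, 6.82 and 7.09 after fasting. The groups overlapped by mouse 339, the highest fasted mouse, which was above the 2 lowest fed mice. The log2 difference was -0.53 ± 0.15 (SE), a fall to 0.691 of the fed level, with an adjusted p of 0.0253. This call was lost in several of the other analyses, with adjusted p between 0.0593 and 0.157.
In aged mice Aqp2 was at 8.34, 8.75, 8.83, 9.00 and 9.16 with ad libitum feeding. It was at 7.24, 8.08, 8.63, 8.70 and 8.78 after fasting. Mice 39 and 33 lay below all fed mice and the other 3 within the fed range. The aged difference of -0.53 ± 0.26 (SE) was as large as in young mice, but with the wider spread it did not pass (adjusted p = 0.305). Without mouse 39 it was -0.27.

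Among the fasted mice, those with low Aqp2 were those with low Avpr2. Relative to the fed mean of their age, young fasted mouse 343 was lowest for both genes, with -0.92 for Aqp2 and -1.07 for Avpr2. Mouse 344 followed with -0.56 and -0.71, then mouse 340 with -0.46 and -0.49 and mouse 339 with -0.19 and -0.38. In aged fasted mice, mouse 39 was lowest with -1.57 for Aqp2 and -0.91 for Avpr2, and mouse 33 next with -0.73 and -0.33, while the remaining 3 were between -0.19 and -0.02 for both. Mouse 33 was also the array with the most albumin transcript, at 12.58 against 7.09 in mouse 39. The part of liver RNA in its low values was not tested. Both genes were read on the same arrays, and with 4 and 5 fasted mice this order is a description only. It did not extend to the young fed mice, where mice 346 and 347 were lowest for Aqp2 (-0.24 each). For Avpr2 those mice were above the fed mean, at 0.06 and 0.02. Among aged fed mice, mouse 40 was lowest for both, with -0.48 for Aqp2 and -0.14 for Avpr2. Mouse 34, the highest of them for Aqp2 at 0.35, was at -0.08 for Avpr2. Mouse 40 was also the lowest aged fed mouse at the Aqp6 probe sets that rose and for Scnn1a. Its medians of the liver (7.93) and brown adipocyte (7.32) lists were the highest of the aged fed mice. The median level of 10 other principal cell and connecting tubule genes was 7.37 in mouse 39 against 7.94 to 8.22 in the other aged fasted mice and 7.76 to 8.15 in the aged fed mice. In young mice it ran from 7.78 in mouse 343 to 8.28 after fasting and reached no more than 7.80 with ad libitum feeding, so mouse 343 was above 4 of the 5 fed mice. The part of cell makeup in these low values was not tested. In such whole-kidney RNA, fewer cells of a type and less RNA per cell cannot be told apart.

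**Figure D2:**
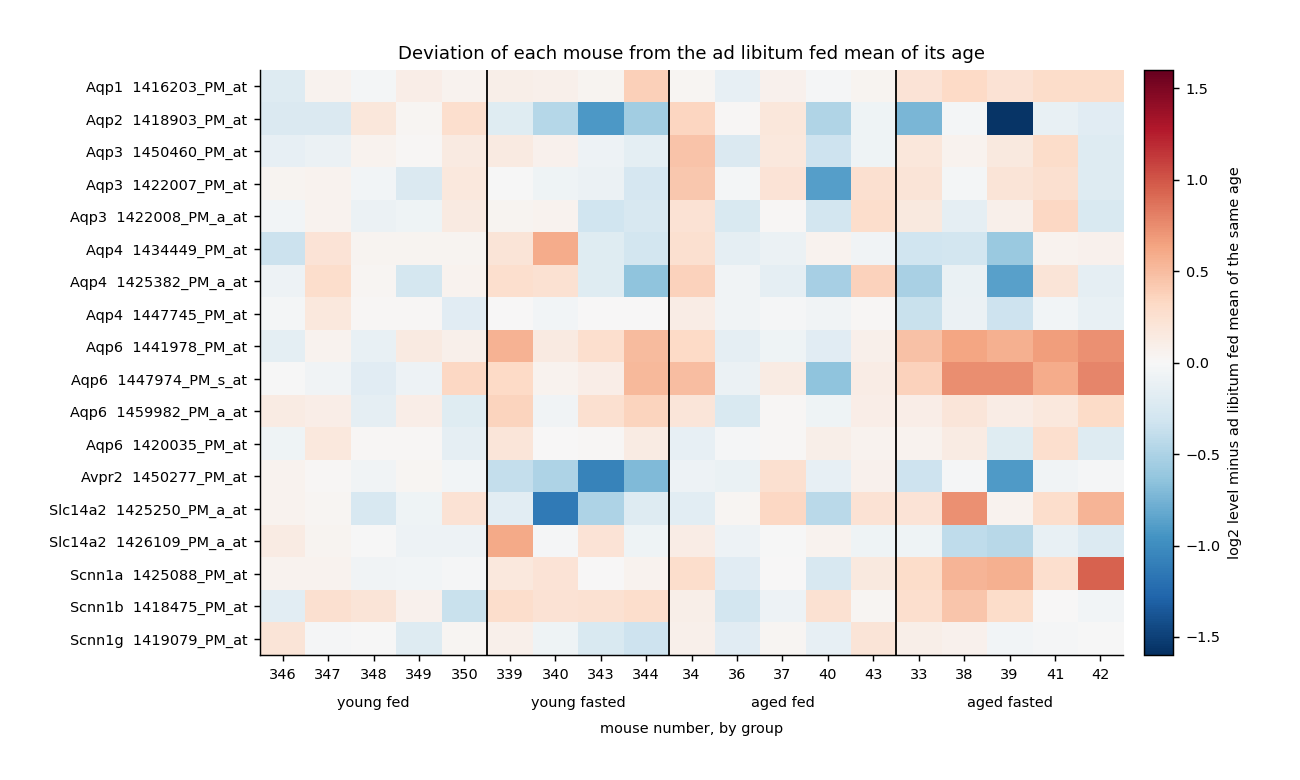
Each of the 18 probe sets (vertical) in each of the 19 mice (horizontal, by group and mouse number), as log2 level minus the ad libitum fed mean of the same age; red is above and blue below that mean. Aqp2 and Avpr2 are blue together in the 4 young fasted mice and, among aged fasted mice, most strongly in mouse 39 and then in mouse 33. The first Aqp6 probe set is red in all 9 fasted mice.

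No probe set of the water channels on the blood side of principal cells passed. The 3 probe sets of Aqp3 missed the threshold in either age, with log2 differences between 0.04 and 0.09 in aged and between -0.12 and -0.0035 in young mice. For the brightest, 1450460_PM_at, the 95% interval was -0.22 to 0.40 in aged and -0.18 to 0.18 in young mice, which leaves out a fall of the size seen for Aqp2 in young mice. Its levels ran from 7.96 to 8.75 in aged fed, 8.08 to 8.58 in aged fasted, 7.82 to 8.09 in young fed and 7.79 to 8.09 in young fasted mice, with the groups overlapping throughout.
Aqp4 missed it in either age as well. Its brightest probe set, 1434449_PM_at, ran from 9.15 to 9.55 in aged fed and from 8.71 to 9.37 in aged fasted mice, a difference of -0.21 ± 0.13 (SE, adjusted p = 0.413). It ran from 8.67 to 9.24 in young fed and from 8.73 to 9.62 in young fasted mice, a difference of 0.08 ± 0.17 (SE, adjusted p = 0.823). Aged fasted mouse 39, low for Aqp2 and Avpr2, was also the lowest of the aged mice for this probe set. At the 3 probe sets of Aqp3 that mouse was instead above the aged fed mean, by 0.16, 0.20 and 0.08. The second probe set differed by -0.28 in aged and -0.08 in young mice, and the third, whose mean lay at or below the median probe set, by -0.19 and -0.0034.

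**Figure D3:**
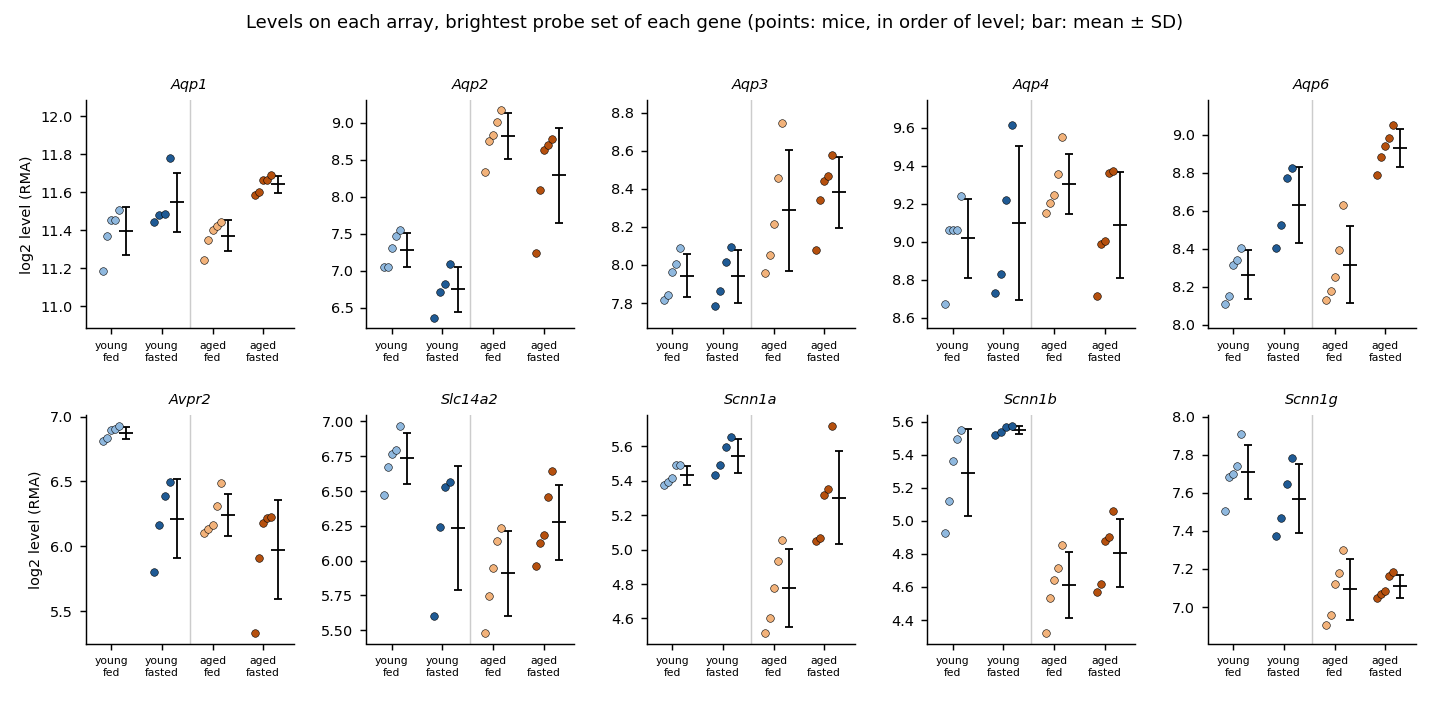
Log2 level of the brightest probe set of each of the 10 genes in every mouse (points, in order of level within each group), with the mean and SD of each group (bars). Each panel has its own vertical scale, and levels are compared only within an age because array medians differ between ages. Fasted and fed points separate for Avpr2 in young mice, for Aqp1 in aged mice and for Aqp6 in both ages.

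Aqp6, the intercalated cell channel, rose in both ages at the probe set 1441978_PM_at. In aged mice its level was 8.13, 8.18, 8.25, 8.39 and 8.63 with ad libitum feeding. It was 8.79, 8.88, 8.94, 8.98 and 9.05 after fasting. All 5 fasted mice lay above all 5 fed mice, and the log2 difference was 0.61 ± 0.10 (SE), a fold change of 1.53 with an adjusted p of 0.00231. In young mice the level was 8.11, 8.15, 8.31, 8.34 and 8.40 with ad libitum feeding. It was 8.40, 8.53, 8.77 and 8.82 after fasting. The groups again did not overlap, although the lowest fasted and the highest fed mouse were next to each other at 8.40. The young difference was 0.37 ± 0.10 (SE), a fold change of 1.29 with an adjusted p of 0.0209. That young call was lost without any 1 of 4 mice, young fed mice 346 and 348 and young fasted mice 339 and 344, with adjusted p up to 0.0651.
A second Aqp6 probe set, 1447974_PM_s_at, carries the suffix that the maker gives to sets matching several transcripts. In aged mice it was at 4.64, 5.19, 5.41, 5.42 and 5.77 with ad libitum feeding. It was at 5.65, 5.88, 6.03, 6.03 and 6.06 after fasting. Only fed mouse 34 reached into the fasted range. It rose by 0.64 ± 0.17 (SE) with an adjusted p of 0.0419, and this call was lost without any 1 of 7 mice. In young mice it differed by 0.25 ± 0.12 (SE) and did not pass (adjusted p = 0.18). The 2 dimmer Aqp6 probe sets did not pass, with 0.18 and 0.01 in aged and 0.23 and 0.09 in young mice. The median level of 9 other intercalated cell genes ranged from 7.36 to 7.49 in aged fed and from 7.43 to 7.61 in aged fasted mice, and from 7.68 to 8.02 and from 7.74 to 7.94 in young fed and fasted mice. None of the 9 rose in either age, and 5 in aged and 4 in young mice had p under 0.05 without adjustment. Those in aged mice were all upwards, like Aqp6: Atp6v1b1 by 0.44, Foxi1 by 0.30, Car2 by 0.21, Slc4a1 by 0.20 and Rhcg by 0.18. In young mice Car2 was upwards by 0.25, and Hmx2, Slc26a4 and Rhcg were downwards.

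Aqp1, the constitutive water channel of the proximal tubule and thin limb, rose in aged mice. Its level was 11.24, 11.35, 11.40, 11.42 and 11.45 with ad libitum feeding. It was 11.59, 11.60, 11.66, 11.67 and 11.69 after fasting. The ranges were narrow and did not overlap. The log2 difference was 0.27 ± 0.06 (SE), a fold change of 1.21 with an adjusted p of 0.0219, and it was lost without aged fasted mouse 38 (0.0566) or 41 (0.0604). In young mice Aqp1 was at 11.19, 11.37, 11.45, 11.45 and 11.51 with ad libitum feeding. It was at 11.44, 11.48, 11.48 and 11.78 after fasting. These groups overlapped, and the difference of 0.15 ± 0.09 (SE) did not pass (adjusted p = 0.282). Aqp1 is also made by endothelium and red cells. Of 7 endothelial and red cell genes none passed in aged mice, 3 of them with p under 0.05 without adjustment. Hba-a1 (-0.28) and Alas2 (-0.62) were downwards and Slc4a1 (0.20) upwards. Slc4a1 is counted among the intercalated cell genes as well.

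Slc14a2, from which the vasopressin-regulated urea transporters are made, differed in opposite directions in the 2 ages at its brighter probe set, 1425250_PM_a_at, without passing in either. In young mice its level was 6.47, 6.67, 6.76, 6.79 and 6.97 with ad libitum feeding. It was 5.60, 6.24, 6.53 and 6.56 after fasting. Mouse 340 stood lowest, and 2 fasted mice were within the fed range. The young difference was -0.50 ± 0.18 (SE, adjusted p = 0.0728). It was -0.29 without mouse 340. In aged mice the level was 5.48, 5.74, 5.94, 6.14 and 6.24 with ad libitum feeding. It was 5.96, 6.13, 6.18, 6.46 and 6.64 after fasting. Of the fasted mice 3 were within the fed range and 2 above it, and the aged difference was 0.37 ± 0.16 (SE, adjusted p = 0.223). The other probe set, whose mean lay below the median probe set in each group, differed the other way in both ages, with -0.25 ± 0.09 (SE, adjusted p = 0.121) in aged and 0.19 ± 0.12 (SE, adjusted p = 0.358) in young mice. The 2 probe sets of this gene thus disagreed.

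Of the ENaC genes, Scnn1a, which encodes the subunit needed to form the pore, rose in aged mice. Its level was 4.51, 4.60, 4.78, 4.94 and 5.06 with ad libitum feeding. It was 5.05, 5.07, 5.32, 5.35 and 5.72 after fasting. The groups met at 5.05 and 5.06, with 4 fasted mice above all fed mice. The log2 difference was 0.53 ± 0.14 (SE), a fold change of 1.44 with an adjusted p of 0.0388. This call was lost without any 1 of 7 mice, with adjusted p between 0.0504 and 0.0936.
In young mice Scnn1a was at 5.38, 5.39, 5.42, 5.49 and 5.49 with ad libitum feeding. It was at 5.43, 5.49, 5.60 and 5.65 after fasting. The groups overlapped and the difference was 0.11 ± 0.06 (SE, adjusted p = 0.277). The regulatory subunit genes did not pass in either age. Scnn1b differed by 0.19 ± 0.12 (SE, adjusted p = 0.422) in aged and 0.26 ± 0.12 (SE, adjusted p = 0.152) in young mice. In the young it spanned 4.93 to 5.55 with ad libitum feeding and only 5.52 to 5.57 after fasting. Scnn1g differed by 0.02 ± 0.08 (SE, adjusted p = 0.947) in aged and -0.14 ± 0.10 (SE, adjusted p = 0.39) in young mice, and its 95% interval of -0.16 to 0.19 in aged mice leaves out a rise of the size seen for Scnn1a.

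None of the 18 probe sets passed the limma test of the difference between the aged and the young fasting effect, which 1.95% of all probe sets passed. At p under 0.05 without adjustment 3 of the 18 did, and an ordinary test without moderation also gave 0. The median difference of effects over the 18 was 0.11, against -0.0061 over all probe sets. Both probe sets of Slc14a2 were among the 3, with opposite signs. The brighter had an aged minus young effect of 0.86 ± 0.25 (SE, 95% interval 0.34 to 1.39, adjusted p = 0.0822). Its adjusted p lay between 0.0622 and 0.171 in the other analyses of that probe set, and with the mean of its 2 probe sets the difference was 0.21. The dimmer had -0.44 ± 0.15 (SE, adjusted p = 0.169). Scnn1a was the other, with 0.42 ± 0.16 (SE, adjusted p = 0.236).
The age difference for Avpr2 was 0.39 ± 0.21 (SE, 95% interval -0.05 to 0.84, adjusted p = 0.449), so its fall in young and not in aged mice was not shown to differ between them. For Aqp2 it was 0.0022 with a 95% interval of -0.69 to 0.70, too wide to call the 2 effects alike. For the first Aqp6 probe set it was 0.25 ± 0.14 (SE, adjusted p = 0.492), and for Aqp1 0.12 ± 0.10 (SE, adjusted p = 0.716).

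Related genes were read at 1 probe set per gene, the brightest. Over all 17097 genes 4.32% rose and 4.84% fell in aged kidneys, 10.7% rose and 12.5% fell in young kidneys, and 2.44% differed between the ages. Those of the lists that passed in both ages or in the age difference are described with their values, and others are named only to complete a count and were chosen after their values were seen. The remaining aquaporin genes and Slc14a1, the other urea transporter gene, numbered 7. None passed in limma in either age or in the difference, and at p under 0.05 without adjustment 1 passed in aged and 0 in young mice. That gene was Aqp11, which differed by -0.24 in aged mice (adjusted p = 0.0817) from a fed mean of 8.28. The aged fed means of Aqp5, Aqp8, Aqp9 and Slc14a1 were between 3.03 and 3.22, below the array medians, so their missing calls say little.

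Of 16 genes of vasopressin receptors and of cyclic AMP and protein kinase A signalling, 2 rose in aged and 1 in young mice, while 2 fell in young mice. Adcy6, the gene of an adenylate cyclase that responds to vasopressin in the collecting duct, rose in both ages, by 0.53 ± 0.11 (SE, adjusted p = 0.0136) in aged and 0.43 ± 0.07 (SE, adjusted p = 0.00158) in young mice. Its level ran from 7.17 to 7.66 in aged fed and 7.82 to 8.28 in aged fasted mice, and from 7.95 to 8.18 in young fed and 8.36 to 8.67 in young fasted mice, with no overlap in either age. Adcy6 thus rose in the young mice in which the receptor gene Avpr2 fell. The second to rise in aged mice was Prkar2a, a regulatory subunit gene of protein kinase A, by 0.23.
The genes that fell in young mice were Avpr1a, another vasopressin receptor gene, and Creb1, whose product binds the cAMP response element. Avpr1a differed by -0.89 ± 0.13 (SE, adjusted p = 0.000674) in young and 0.08 ± 0.10 (SE, adjusted p = 0.745) in aged mice. Its age difference of 0.97 passed (adjusted p = 0.00478). Young means of this gene went from 5.00 to 4.11, ending just below the fasted array median of 4.19. Its aged fed mean of 3.47 already lay at the array median of 3.47. A fall had little room to show there, so the missing aged call and the passed age difference say little. Creb1 differed by -0.27 ± 0.08 (SE, adjusted p = 0.0324) in young and 0.27 ± 0.09 (SE, adjusted p = 0.0902) in aged mice, and its age difference of 0.54 passed too (adjusted p = 0.0216). The median over the 16 genes was 0.09 in aged and 0.06 in young mice. Gnas, Crem and Adcy4 had means below the array median in every group (2.56, 2.79 and 3.01 in aged fed mice). Their missing calls say little.
Of 9 genes of aquaporin-2 vesicle traffic, none passed in aged mice (4 at p under 0.05 without adjustment) and 2 fell in young mice, the vesicle protein gene Vamp3 by 0.42 and the chaperone gene Hspa8 by 0.20. Medians were -0.03 and -0.07.

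Among 17 genes of the mineralocorticoid response and of ENaC control, none passed in aged mice (3 at p under 0.05 without adjustment), where Scnn1a rose. In young mice 4 rose: Sgk1, the aldosterone-induced kinase gene, by 0.61, Fkbp5 by 0.59, Tsc22d3 by 0.33 and the protease inhibitor gene Spint1 by 0.30. Fkbp5 and Tsc22d3 are known targets of corticosteroid receptors. Kcnj1, the gene of the potassium channel ROMK, fell in young mice by 0.45 ± 0.09 (SE, adjusted p = 0.00336) and differed by 0.20 ± 0.09 (SE, adjusted p = 0.256) in aged mice, with an age difference of 0.65 (adjusted p = 0.0108). Medians over the list were 0.06 in aged and 0.12 in young mice.
Of 7 tonicity genes, which protect medullary cells from high salt, none passed in aged mice (1 at p under 0.05 without adjustment), and 2 rose in young mice: the regulator Nfat5 by 0.52 and the taurine transporter gene Slc6a6 by 0.39. Their medians were 0.23 in aged and -0.09 in young mice, so the median and the calls differ in sign in the young.

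Among 10 further principal cell and connecting tubule genes, Tfcp2l1, a transcription factor gene of collecting duct cells, rose by 0.92 ± 0.10 (SE, adjusted p = 0.000131) in aged and 0.94 ± 0.09 (SE, adjusted p = 3.71e-05) in young mice. Its level ran from 9.23 to 9.63 in aged fed and 10.04 to 10.45 in aged fasted mice, and from 9.68 to 10.12 in young fed and 10.79 to 10.92 in young fasted mice. Calb1, the calbindin gene of the distal convoluted and connecting tubule, fell by 0.99 ± 0.16 (SE, adjusted p = 0.00227) in aged and by 0.94 ± 0.07 (SE, adjusted p = 5.92e-06) in young mice. These were the only 2 to pass in aged mice, and they moved in opposite directions within a single list. In young mice the keratin genes Krt18, by 0.90 ± 0.13 (SE, adjusted p = 0.000612), and Krt8, by 0.44, rose as well. Krt18 differed by -0.12 in aged mice, and the age difference of -1.02 passed (adjusted p = 0.031). The list's medians were 0.04 in aged and -0.03 in young mice.
Among 9 intercalated cell genes, those that fell in young mice were the ammonia channel gene Rhcg and Slc26a4, the gene of the chloride and bicarbonate exchanger pendrin, the latter by 0.40. Rhcg fell by 0.33 ± 0.08 (SE, adjusted p = 0.00884) and differed by 0.18 ± 0.08 (SE, adjusted p = 0.229) in aged mice, with an age difference of 0.52 (adjusted p = 0.0165). The list's medians were 0.18 in aged and -0.14 in young mice, and Aqp6 rose in both.
Among 7 loop and distal tubule genes, Pvalb, the parvalbumin gene of the early distal convoluted tubule, fell by 1.13 ± 0.17 (SE, adjusted p = 0.00174) in aged and by 1.01 ± 0.11 (SE, adjusted p = 7.68e-05) in young mice. Bsnd by 0.45 and Cldn16 by 0.26 also fell in young mice. Medians were -0.04 and -0.10.

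**Figure D4:**
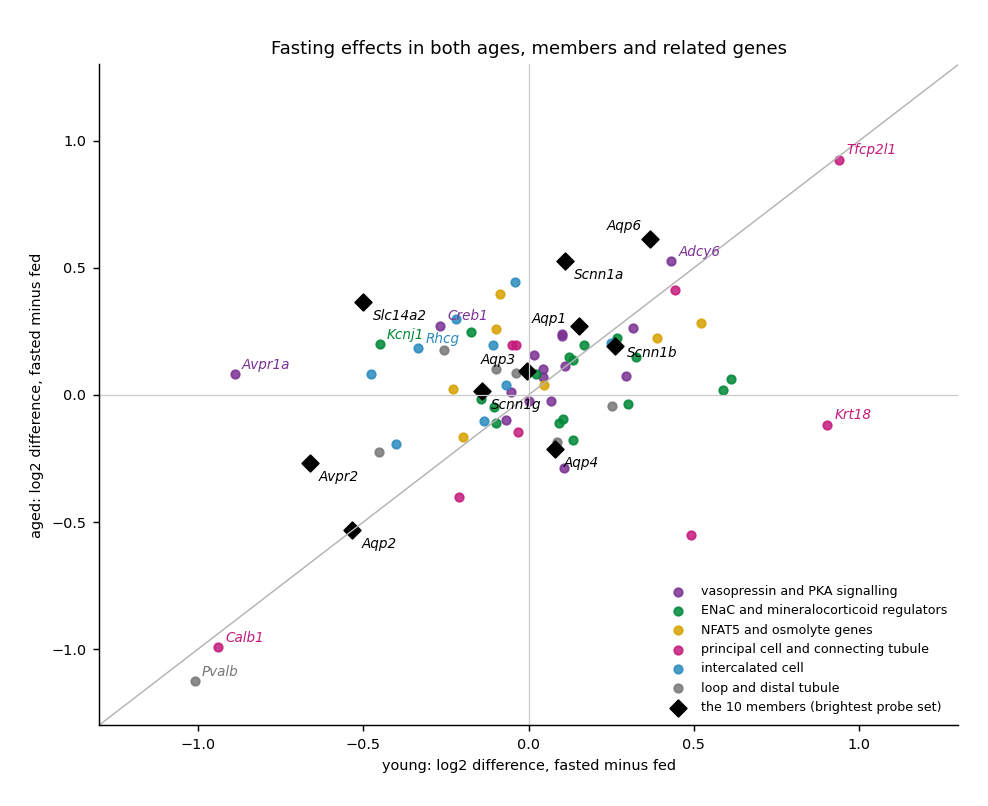
Log2 difference between fasted and ad libitum fed mice, young (horizontal) against aged (vertical), for the 10 genes at their brightest probe set (black diamonds) and for 6 lists of related genes (coloured points); the diagonal marks equal effects. Aqp2 lies near the diagonal at -0.53 in both ages, Avpr2 above it and Slc14a2 at 0.37 in aged and -0.50 in young mice, beside Kcnj1, Creb1 and Rhcg, whose age difference passed.

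Of 6 proximal tubule genes, 1 rose and 3 fell in each age. Slc13a3 rose by 0.64 in aged and 0.76 in young mice, and Slc5a2 (by 1.09 and 0.89), Slc7a13 (by 0.59 and 0.89) and Slc22a6 (by 0.37 and 0.32) fell. Aqp1, made in the same segment, rose in aged mice beside them. Of 9 liver genes none passed in aged mice, with 2 at p under 0.05 without adjustment, and in young mice Serpina1a (by 1.38) and Serpina1b (by 0.76) rose and Ttr fell (by 1.04). Of 8 brown adipocyte genes, Cidea (by 2.84), Cox8b (by 1.77) and Dio2 (by 0.24) rose in young mice, and Cox7a1 fell in both ages, by 0.85 in aged and 0.77 in young mice. Both young means of Dio2, 3.28 and 3.52, lay below the array medians. Adipoq and Fabp4, which brown and white adipocytes share, did not pass in either age. The median level of the brown adipocyte list was 3.62 to 4.28 in young fed and 3.79 to 7.33 in young fasted mice, and 3.97 to 7.32 in aged fed and 3.42 to 6.61 in aged fasted mice.
Of 7 urothelium genes, Upk2 fell by 0.41 in aged mice and Upk3a rose by 0.62 in young mice. Aged means of Upk2 went from 3.54, near the array medians, to 3.12, below them. Of 7 endothelial and red cell genes, Alas2 by 1.01, Hba-a1 by 0.75 and Kdr by 0.27 fell in young mice. Of 5 skeletal muscle genes none passed in aged mice (1 at p under 0.05 without adjustment), and in young mice Mylpf rose by 0.41 and Ckm fell by 0.24. Both young means of Ckm, 3.52 and 3.28, lay below the array medians. The part that adipose, liver or blood RNA had in the young or the aged results was not tested. Without mouse 339 the young differences were -0.76 for Avpr2 and -0.65 for Aqp2, both with an adjusted p under that with all mice (0.00104 and 0.00939). Mouse 339 deviated least of the young fasted mice for both genes, so larger differences without it follow from leaving it out. Fasted mice 340 and 343, which remained, had brown adipocyte list medians of 6.22 and 6.68, so this is no check of mixed-in RNA.

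For the 2 genes that changed by at least 1.5-fold, the genes with the most similar pattern were found by the root mean square of the log2 difference over the 19 arrays, after the fed mean of each age was subtracted. For Aqp6 these were Pxdc1 (0.121), Stk32b (0.134) and Slc23a1 (0.139), where Aqp6 itself deviated by 0.384. Pxdc1 rose by 0.63 in aged and 0.43 in young mice, Stk32b by 0.60 and 0.34, and Slc23a1, the gene of a vitamin C transporter, by 0.48 and 0.39. For Avpr2, which deviated by 0.403, they were Pla2g6 (0.183), Ptger3 (0.192) and Ppp4r1 (0.197). Ptger3 encodes a prostaglandin E receptor and fell by 0.75 in young mice, and Pla2g6 fell by 0.56 and Ppp4r1 by 0.50. In aged mice Ppp4r1 fell by 0.32, while Pla2g6 differed by -0.29 (adjusted p = 0.135) and Ptger3 by -0.24 (adjusted p = 0.288). These genes were picked for their likeness over the same arrays, so it is no test.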

How the data were processed

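Affymetrix HT MG-430 PM arrays were used for kidney RNA of 19 male mice. The authors corrected and normalized the arrays with the RMA algorithm in an online pipeline and deposited log2 values of 45141 probe sets; its version is not given in the sources used here. RMA sets arrays to a common distribution, but young and aged arrays have different medians, which points to a separate normalization of each age. Groups followed the labels, and 0 columns were left without a sample.

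The log2 values were fitted in R 4.3.3 with limma 3.58.1 (lmFit and eBayes), aged and young arrays separately. The difference between the fasting effects came from a single fit to all 19 arrays with 4 group means. Adjustment for multiple testing (Benjamini-Hochberg) covered every probe set, and an adjusted p no larger than 0.05 was a pass. Changes of 1.5-fold or more were counted beside it. The scripts were tested on simulated data. Probe sets were named from the platform annotation, which gave 1 symbol for 28898, several for 551 and no entry for 15692. Levels of different probe sets are not comparable.

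The members and the 14 other lists (138 entries, 124 measured) were chosen with earlier results of these data known. Named were all probe sets of the members, at most 4 genes of each list that passed in both ages or in the age difference, and the 3 genes closest to each member that passed with at least 1.5-fold. Levels of a list are medians over its genes on an array. Promoters came from RefSeq (GRCm38.p6). Alternatives were an ordinary test without moderation (the methods name ANOVA with false discovery rates), all arrays in a single fit, array weights, variance trend with robust fitting, quantile normalization, median centring, removal of the lowest 40 percent of probe sets, 1 probe set or the mean of the probe sets per gene, and leaving out arrays.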

Additional observations from a re-analysis of the deposited data

Results flagged for a closer look

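Each group of 4 or 5 mice was searched, at each of the 18 probe sets, for a highest or lowest mouse set apart from the others by a large part of the group's range. Of 72 groups 2 held such a mouse, fewer than the about 1 in 20 that chance gives. For Aqp1, young fasted mouse 344 was at 11.78 and the nearest mouse at 11.48, a gap of 0.878 of the range. For the dim Aqp4 probe set 1447745_PM_at, young fasted mouse 340 was at 3.30, and the other 3 mice shared the value 3.35. No member passed the test of the difference between ages.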

How the results depend on the processing

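The 54 member results were recomputed in 1103 alternative settings: 1021 kept direction and side of the threshold, 30 lost and 6 gained a call, and 46 changed sign, 0 of them called either way. The number of members passing was 4 in aged mice, 2 in the ordinary test and 1 to 4 leaving out a mouse (1 without aged fasted mouse 38). It was 3 in young mice, 1 in the ordinary test and 1 to 4 leaving out a mouse (1 without fed mouse 348 or fasted mouse 344). The call for Aqp6 1441978_PM_at in aged and for Avpr2 in young mice held in every setting. Those for Scnn1a (0.122), Aqp6 1447974_PM_s_at (0.139) in aged and Aqp2 (0.099) and Aqp6 1441978_PM_at (0.0712) in young mice were lost in the ordinary test, given as adjusted p. Slc14a2 1425250_PM_a_at passed in young mice with variance trend and robust fitting (0.0473), with the lowest 40 percent of probe sets removed (0.049) and without mouse 339 (0.0412). Listed genes passing were 11 in aged mice (8 to 14 leaving out a mouse), 38 in young mice (29 to 36) and 5 for the age difference (3 to 7, with 3 without young fasted mouse 340). The causes were not tested.
Sign changes near 0 were as follows. With array weights, Aqp2 was at -0.017 for the age difference, and in aged mice Aqp3 1422007_PM_at was at -0.044, Aqp3 1422008_PM_a_at at -0.0037 and Scnn1g at -0.027. With quantile normalization Aqp3 1422008_PM_a_at was at -0.00015 and Scnn1g at -0.0058. Without mice 33 and 339, aged Scnn1g was at -0.0021, aged Aqp6 1420035_PM_at at -4.49e-05 and the age difference of Aqp6 1459982_PM_a_at at 0.0096. With the mean of its probe sets young Aqp4 was at -0.0027. Leaving out a mouse gave these ranges. In aged mice they were -0.13 to 0.20 for Aqp3 1422007_PM_at, -0.038 to 0.11 for Aqp3 1422008_PM_a_at, -0.052 to 0.068 for Aqp6 1420035_PM_at and -0.030 to 0.069 for Scnn1g. In young mice they were -0.054 to 0.048 for Aqp3 1450460_PM_at, -0.20 to 0.10 for Aqp4 1425382_PM_a_at, -0.093 to 0.20 for Aqp4 1434449_PM_at and -0.048 to 0.039 for Aqp4 1447745_PM_at. For the age difference they were -0.13 to 0.26 for Aqp2, -0.018 to 0.31 for Aqp3 1422007_PM_at, -0.15 to 0.00023 for Aqp6 1459982_PM_a_at and -0.14 to 0.022 for Scnn1b. Scalings moved the median of all probe sets by under 0.1. Dim probe sets removed by the filter have no value there. No paired analysis was possible because the labels give no replicate number that groups share, although the methods describe matching of mice by weight and sex.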
